A study of Homo sapiens with 8 samples.

Results

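Collagen receptors are the surface proteins through which a cell reads the triple helix of collagen. The genes taken were the collagen-binding integrin alpha subunits ITGA1, ITGA2, ITGA10 and ITGA11, their shared beta subunit ITGB1, the discoidin domain receptors DDR1 and DDR2, and the immunoglobulin-type receptors LAIR1 and GP6. Their probe sets were found by gene symbol in the platform annotation. Of the 9 genes, 8 had a named probe set, 1 each, among the 21448 probe sets of the table, and ITGA1 was not analysed here.

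The cells were CCRF-CEM, a human cell line long established from a T-ALL (T-cell acute lymphoblastic leukaemia). In the OICR-9429 group (4 arrays), cells had 1 h of pretreatment with 1 µM OICR-9429, a small molecule that binds WDR5, and then 1 h in a gel of bovine type I collagen at 1.7 mg/mL. In the untreated group (4 arrays), cells had the same 1 h in the gel without the compound, and the labels name no solvent for them. Every sample was in collagen, so no array shows these receptors without their ligand, and the whole design rests on 1 cell line. Replicates carry numbers 1 to 4 in each group. The labels call them biological replicates without naming a passage or a day for each, and p-values therefore describe the spread among these 8 arrays. Levels are given as log2 expression values.

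Integrins work as pairs of an alpha and a beta subunit. The alpha subunits ITGA1, ITGA2, ITGA10 and ITGA11 each pair with ITGB1 and bind collagen through an inserted domain of the alpha chain, and ITGB1 also serves the fibronectin and laminin receptors. DDR1 and DDR2 are receptor tyrosine kinases that collagen activates slowly. LAIR1 is an inhibitory receptor of leukocytes whose cytoplasmic motifs recruit the phosphatases PTPN6 and PTPN11, and GP6 is the activating collagen receptor of platelets, which signals through FCER1G and SYK.

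ITGB1 and LAIR1 were the receptors whose signal stood far above the dim range, and ITGA2 is the alpha chain best known for type I collagen. The 250 bases before an annotated start of each are shown to set these genes side by side. They come from RefSeq, build GRCh38.p14, and run 5′ to 3′ along the gene's strand. Capitals mark matches, on either strand, to GGGCGG (the GC box), TATAAA (the TATA box), TGTGGT (a RUNX site) or CACGTG (an E-box).
ITGB1: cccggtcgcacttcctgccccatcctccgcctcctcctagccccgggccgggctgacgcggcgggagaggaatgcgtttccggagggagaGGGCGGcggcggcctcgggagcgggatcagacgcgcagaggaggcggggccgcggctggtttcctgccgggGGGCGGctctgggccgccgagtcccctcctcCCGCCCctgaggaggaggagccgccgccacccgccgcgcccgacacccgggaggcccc
ITGA2: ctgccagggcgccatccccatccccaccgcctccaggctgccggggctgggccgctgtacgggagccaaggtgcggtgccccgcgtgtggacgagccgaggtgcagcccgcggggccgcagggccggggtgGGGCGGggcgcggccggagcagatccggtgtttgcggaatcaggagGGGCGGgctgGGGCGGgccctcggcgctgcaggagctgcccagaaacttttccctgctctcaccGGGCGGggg
LAIR1: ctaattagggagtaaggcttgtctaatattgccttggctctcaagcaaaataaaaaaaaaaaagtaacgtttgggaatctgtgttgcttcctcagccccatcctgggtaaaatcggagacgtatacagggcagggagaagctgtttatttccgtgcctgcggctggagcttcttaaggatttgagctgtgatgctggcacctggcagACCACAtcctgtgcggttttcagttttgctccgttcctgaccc
The ITGB1 stretch lies at chr10:32958231-32958480 on the minus strand, the ITGA2 stretch at chr5:52989102-52989351 on the plus strand and the LAIR1 stretch at chr19:54370559-54370808 on the minus strand. ITGB1 held 3 GC boxes and 32 CpG pairs, and ITGA2 held 4 GC boxes and 26 CpG pairs. LAIR1 held 0 GC boxes, 7 CpG pairs and 1 RUNX site, which starts 43 bases before the annotated start. Over 35116 windows of the same length, 42.6% held a GC box, 11.0% a RUNX site, 10.7% a TATA box and 6.35% an E-box, and the median window had 11 CpG pairs. Among the start windows used here, ITGB1 and LAIR1 had 2 each, and the outer of the 2 is shown. The LAIR1 gene itself reaches further out, to chr19:54376088, so its shown start lies inside the gene. The other ITGB1 window held 0 GC boxes and 3 TATA boxes, and the other LAIR1 window 0 GC boxes and 0 RUNX sites. These matches describe letters and say nothing about which factor binds, and no link between them and the levels was tested.

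The first question was which receptors stood above the range of dim probe sets. The table holds no detection call, so the 348 probe sets of olfactory receptors, a family taken as silent in leukaemia cells, served as the yardstick. The upper bound of the dim range was the 95th percentile of their mean levels, 4.82 on the log2 scale, and 72.5% of all probe sets lay above it. Probe sets differ in how brightly they report, so a level places a gene against this range and does not rank receptors against each other.

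ITGB1 and LAIR1 stood far above it. ITGB1 measured 9.29, 9.87, 9.78 and 8.87 at numbers 1 to 4 with OICR-9429, against 9.36, 9.70, 9.69 and 8.80 in untreated cells. LAIR1 measured 9.93, 9.82, 9.59 and 10.39 with OICR-9429, against 9.92, 9.90, 9.68 and 10.31 in untreated cells. On all 8 arrays both lay above the bound of that array, and their means exceeded every olfactory receptor probe set, with 88.8% and 93.3% of all probe sets below them. LAIR2, from the list of other collagen-binding proteins, averaged 10.16, with number means of 10.02, 10.12, 9.90 and 10.60. Whether the LAIR1 and LAIR2 probe sets share signal was not tested.

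ITGA10, GP6 and DDR1 stood above the bound by smaller margins. ITGA10, the alpha chain known from cartilage, measured 5.52, 5.74, 5.48 and 6.34 with OICR-9429, against 5.61, 5.66, 5.52 and 5.79 in untreated cells. GP6 measured 5.22, 5.15, 5.05 and 5.67 with OICR-9429, against 5.23, 5.54, 5.39 and 5.81 in untreated cells. Both passed the bound of the array on all 8 arrays, and 98.3% and 97.1% of olfactory receptor probe sets were dimmer than ITGA10 and GP6. Of all probe sets, only 39.9% and 35.6% were dimmer than ITGA10 and GP6. DDR1 measured 4.56, 5.39, 5.12 and 4.50 with OICR-9429, against 4.55, 5.42, 5.16 and 4.29 in untreated cells. It passed the bound at numbers 2 and 3 in both groups and not at numbers 1 and 4. Its mean of 4.87 was the nearest above the bound, with 28.3% of all probe sets below it, and DDR2 with 4.59 was the nearest below the bound.

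ITGA2, ITGA11 and DDR2 lay inside the dim range on average, which does not show that they are absent. ITGA2, the alpha chain of the integrin best known for binding type I collagen, measured 3.67, 5.11, 4.15 and 4.47 with OICR-9429, against 4.37, 5.39, 3.95 and 4.06 in untreated cells. Only the 2 arrays of number 2 lay above their own bound. ITGA11, known from fibroblasts, measured 3.98, 3.66, 4.00 and 5.47 with OICR-9429, against 3.93, 4.47, 3.73 and 5.08 in untreated cells, and 1 of its 8 arrays, OICR-9429 number 4, passed its own bound. DDR2 measured 4.41 to 4.71 with OICR-9429 and 4.52 to 4.83 in untreated cells, and 0 of 8 arrays passed.

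**Figure D1:**
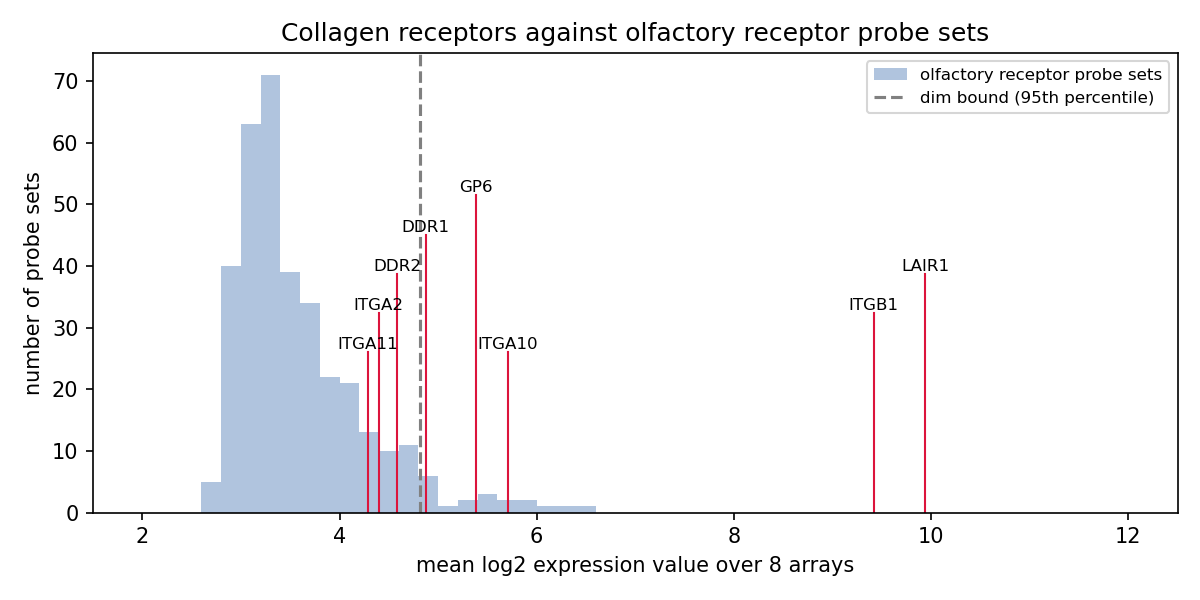
Number of olfactory receptor probe sets (bars) by mean log2 expression value over 8 arrays, with the mean of each collagen receptor as a red line, whose height carries no value, and the 95th percentile of the olfactory receptors, 4.82, as a dashed line. ITGB1 (9.42) and LAIR1 (9.94) stand clear of all bars, while DDR1 (4.87) and DDR2 (4.59) lie on either side of the dashed line.

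The count of 5 receptors above the dim range rested on the bound. With the 99th percentile of the olfactory receptors (5.86), or with the 95th percentile of 85 probe sets of keratin-associated proteins (7.32), 2 receptors remained above it, ITGB1 and LAIR1. With the 90th percentile of the olfactory receptors (4.49) there were 6, DDR2 being added, and 4 lay above the bound of the array on every array. Without both arrays of number 2 or of number 3, DDR1 lay inside the dim range, and 4 receptors lay above it.

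The label of the cells was checked against T-ALL markers: all 12 of 12 measured lay above the bound, and CD5, a T-cell surface receptor, averaged 9.85 ± 0.55 with OICR-9429 and 10.00 ± 0.46 in untreated cells (SD, n = 4 each). CD1A and CD1E, lipid-presenting proteins of cortical thymocytes, had number means of 5.53 to 8.30 and 7.67 to 11.08. Markers of the cell types these receptors are best known from lay above the bound in part: 5 of 7 platelet and megakaryocyte markers, 6 of 7 myeloid, 4 of 6 epithelial and 4 of 7 fibroblast markers, against 72.5% of all probe sets. The myeloid LYZ, the epithelial CDH1 and KRT18, the platelet ITGB3 and PPBP, and the fibroblast PDGFRA, LUM and FAP lay inside the dim range. In bulk RNA, fewer cells of a type and less RNA per cell cannot be told apart.

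The design sets cells pretreated with OICR-9429 against untreated cells, both after 1 h in the gel. No collagen receptor passed the test: limma without a term for replicate number gave 0 of 8 receptors at an adjusted p under 0.05, against 0% of all probe sets, with an adjusted p of 1 for each. At an unadjusted p under 0.05 there were 0 of 8, against 0.49% of all probe sets. Arrays with the same number deviated together, so the fit was also run with the number as a block. That replicate block again gave 0 of 8 at an adjusted p under 0.05 (0% of all probe sets) and 0 of 8 at an unadjusted p under 0.05 (5.55% of all probe sets). In 0 of 8 receptors did the values of the groups not overlap, against 0.737% of all probe sets. The median difference of the 8 was -0.0225 and that of all probe sets 0.005 on the log2 scale.

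For the receptors far above the dim range the differences were small. ITGB1 averaged 9.45 ± 0.46 with OICR-9429 and 9.39 ± 0.42 in untreated cells (SD, n = 4 each). The log2 difference was 0.065 ± 0.28 (SE without the block, 0.097 with it). Within numbers 1 to 4 it stood at -0.07, 0.17, 0.09 and 0.07, higher with OICR-9429 in 3 of 4 pairs, and the 95% interval with the replicate block ran from -0.16 to 0.29. LAIR1 averaged 9.93 ± 0.34 with OICR-9429 and 9.95 ± 0.26 in untreated cells (SD, n = 4 each). The log2 difference was -0.02 ± 0.21 (SE without the block, 0.095 with it). Its pairs were 0.01, -0.08, -0.09 and 0.08, and the interval with the block ran from -0.24 to 0.20.

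GP6 lay nearest to a difference. It averaged 5.27 ± 0.27 with OICR-9429 and 5.49 ± 0.25 in untreated cells (SD, n = 4 each). The log2 difference was -0.22 ± 0.19 (SE without the block, 0.11 with it). Its pairs were -0.01, -0.39, -0.34 and -0.14. It was the only receptor with the same sign in all 4 pairs (1 of 8), against 12.6% of all probe sets, and limma with the replicate block gave it adjusted p = 0.841 with an interval from -0.47 to 0.03. The platelet and megakaryocyte markers stood beside it: 6 of 7 had a mean difference below 0 and 1 above, against 48.3% of all probe sets below 0, with a median log2 difference of -0.12. At an unadjusted p under 0.05 with the block there were 2 of 7, against 5.55% of all probe sets, and none passed after adjustment. Their mean level was 5.10 to 5.54 over OICR-9429 arrays and 5.22 to 5.59 over untreated arrays. PF4, a platelet chemokine, averaged 6.32 ± 0.36 with OICR-9429 and 6.60 ± 0.16 in untreated cells (SD, n = 4 each). GP9, a subunit of the platelet von Willebrand factor receptor, averaged 4.67 ± 0.26 with OICR-9429 and 5.00 ± 0.35 in untreated cells (SD, n = 4 each). Its mean over all arrays was 4.83, next to the dim bound of 4.82, and 3 of 8 arrays passed their own bound. Other lists leaned both ways. Fibroblast markers had 5 differences below 0 and 2 above (median -0.205), and other collagen-binding proteins 5 and 2 (-0.115). Myeloid markers had 4 below and 3 above (-0.0375), and epithelial markers 2 and 4 (0.07). The signalling genes below GP6 and LAIR1 had 2 below and 7 above (0.0225). The part of the platelet markers in the GP6 values was not tested.

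The dimmer integrin chains had pairs of both signs. ITGA2 gave -0.70, -0.28, 0.20 and 0.41 at numbers 1 to 4, with a mean of -0.0925 and an interval from -0.50 to 0.32 with the block. ITGA11 gave 0.05, -0.81, 0.27 and 0.39, with a mean of -0.025 and an interval from -0.46 to 0.41. ITGA10 averaged 0.125, of which number 4 contributed a pair difference of 0.55 while the others lay between -0.09 and 0.08. Without OICR-9429 replicate 4 that mean was -0.065.

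The discoidin domain receptors likewise showed no difference past the threshold. DDR1 averaged 4.89 ± 0.43 with OICR-9429 and 4.86 ± 0.52 in untreated cells (SD, n = 4 each), with pairs of 0.01, -0.03, -0.04 and 0.21. DDR2 averaged 4.54 ± 0.13 with OICR-9429 and 4.64 ± 0.14 in untreated cells (SD, n = 4 each), with pairs of -0.11, 0.16, -0.14 and -0.30. For all 8 receptors the 95% interval with the block lay within 1.5-fold in either direction, as it did for 90.7% of all probe sets. Without the block the intervals were wider, and only those of LAIR1 (-0.50 to 0.46) and DDR2 (-0.43 to 0.24) lay within 1.5-fold. ITGB1 ran from -0.57 to 0.70, ITGA2 from -0.94 to 0.76 and ITGA11 from -0.97 to 0.92 (log2). DDR1 ran from -0.64 to 0.71, GP6 from -0.66 to 0.22 and ITGA10 from -0.34 to 0.59. For a probe set inside the dim range, a narrow interval says little about its transcript.

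**Figure D2:**
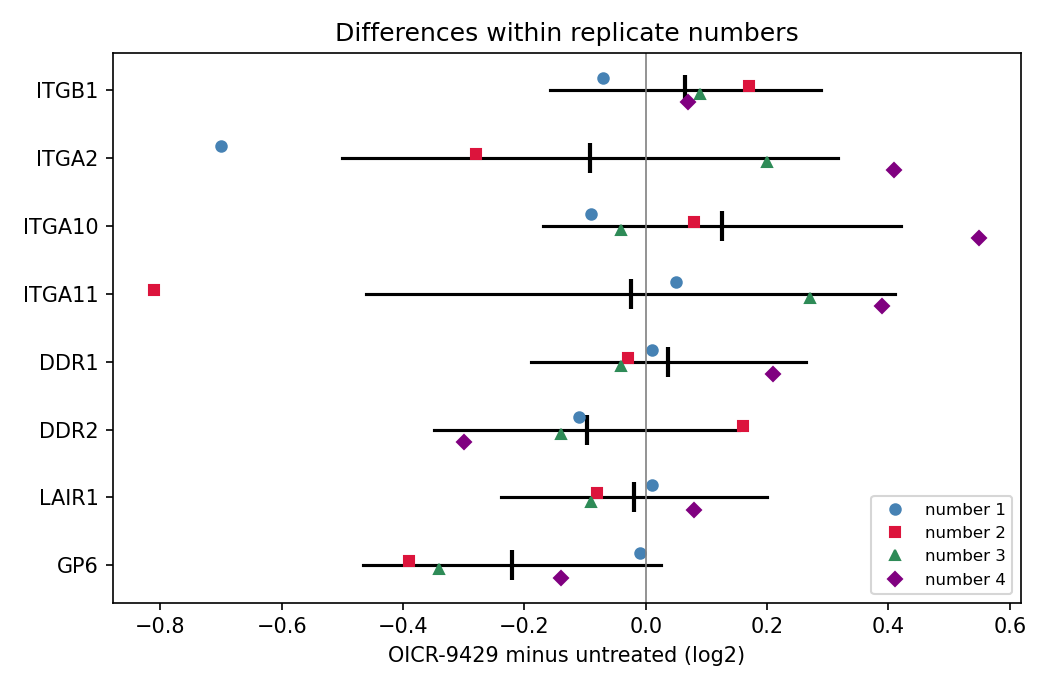
Difference between OICR-9429 and untreated cells (log2) for each receptor, with symbols for the 4 replicate numbers, a vertical tick for the mean and a horizontal line for the 95% interval with the replicate block. Every line crosses 0, and GP6 has its 4 symbols below 0, from -0.39 to -0.01.

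Differences between replicate numbers were larger than those with treatment. Numbers are not a condition of the study, and what they mark is not given in the labels. When limma tested the 4 numbers against each other, with treatment as a term, 5 of 8 receptors passed an adjusted p of 0.05, as did 50.3% of all probe sets. The 5 were ITGB1, ITGA2, ITGA11, DDR1 and LAIR1. Each number has 2 arrays, which share it, so the test rests on how the treatment difference varies between pairs and not on separate cultures of a number. Leaving out number 4 lowered the count of receptors to 2, ITGA2 and DDR1, and the share of all probe sets to 13.9%.

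**Figure D3:**
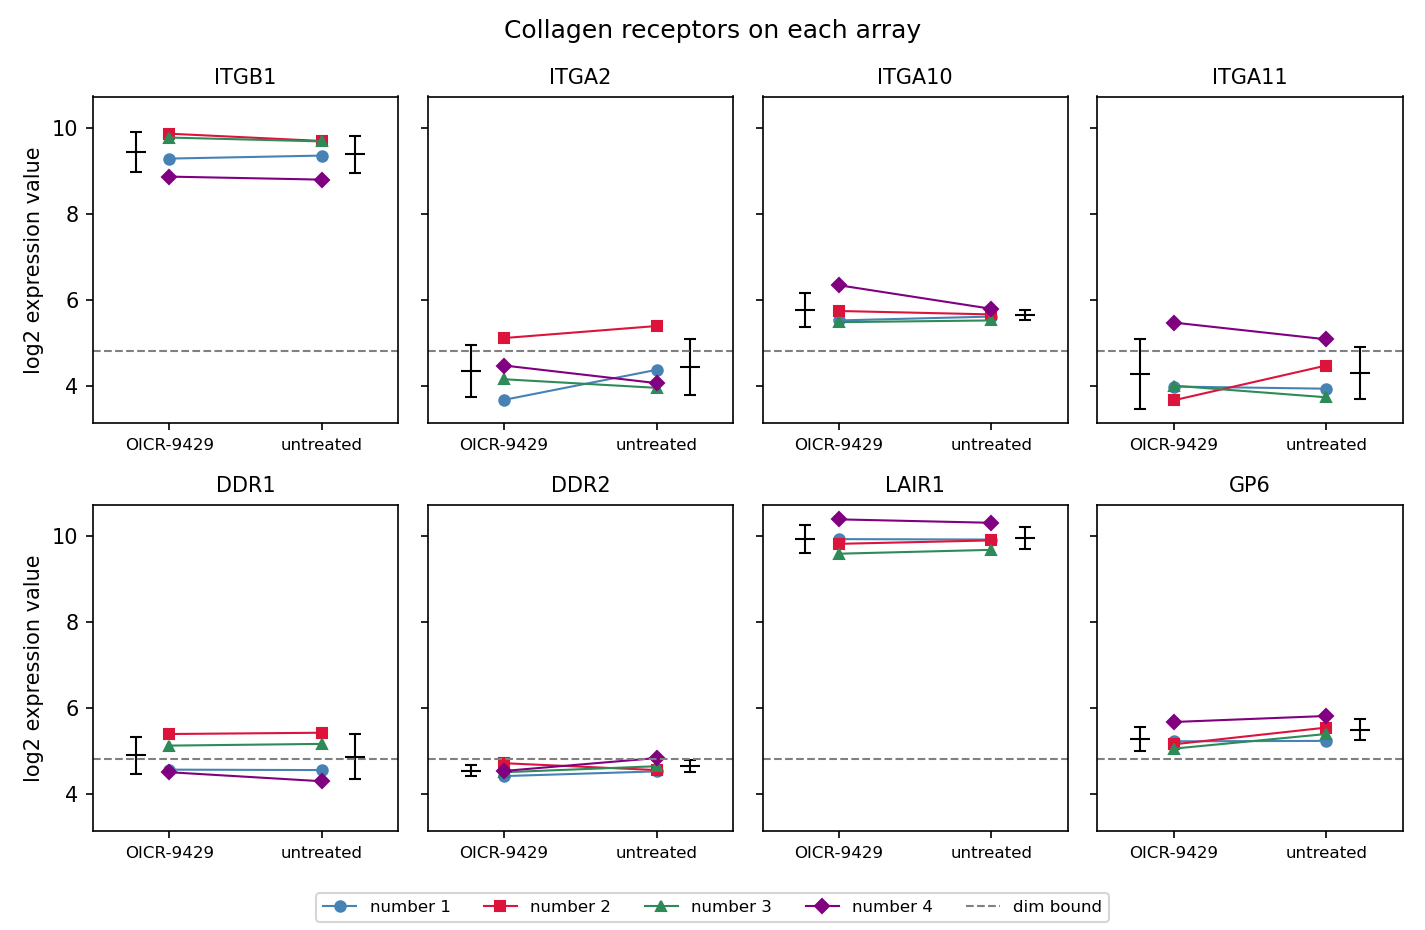
Log2 expression value of each collagen receptor on every array, with OICR-9429 at the left and untreated at the right of each panel, a line for each replicate number, black marks for mean ± SD (n = 4) and the dim bound of 4.82 dashed. ITGB1 at number 4 (8.87 and 8.80) has nearly level lines, while ITGA11 at number 2 (3.66 and 4.47) and ITGA2 at number 1 (3.67 and 4.37) have steep ones.

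At number 4 the shared beta chain was lower, while the alpha chain ITGA11 was higher. ITGB1 was lower at number 4, where its arrays measured 8.87 with OICR-9429 and 8.80 untreated, while the other 6 arrays lay between 9.29 and 9.87. Number 4 stood -0.78 ± 0.11 (SE) from the mean of the other numbers on the log2 scale (limma, adjusted p = 0.000733), and number 2 stood 0.49 ± 0.11 above (adjusted p = 0.0149). Without number 4, ITGB1 had adjusted p = 0.102 for any difference between numbers.

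ITGA2 was high at number 2, where it measured 5.11 with OICR-9429 and 5.39 untreated, against 3.67 to 4.47 on the other 6 arrays. The difference from the other numbers was 1.14 ± 0.20 (SE) on the log2 scale (limma, adjusted p = 0.00574), and without number 2 the test of any difference gave adjusted p = 0.676.

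ITGA11 was high at number 4, where it measured 5.47 with OICR-9429 and 5.08 untreated, against 3.66 to 4.47 on the other 6 arrays. The difference was 1.31 ± 0.22 (SE, limma, adjusted p = 0.00152), and without number 4 the test of any difference gave adjusted p = 0.819. ITGA10 was higher at number 4 by 0.48 ± 0.15 (SE, limma, adjusted p = 0.0266), but the test over all numbers gave adjusted p = 0.093.

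DDR1 had adjusted p = 0.00178 over all numbers (limma). Its number 2 arrays stood 0.71 ± 0.11 (SE) above the other numbers on the log2 scale (limma, adjusted p = 0.00377), and its number 4 and number 1 arrays -0.64 ± 0.11 and -0.43 ± 0.11 (adjusted p = 0.00214 and 0.0396). Leaving out each number in turn kept it past the threshold, with adjusted p between 0.00353 and 0.0165 (limma). DDR2 did not differ past the threshold (adjusted p = 0.621), with number means of 4.47 to 4.68.

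LAIR1 was high at number 4, at 10.39 with OICR-9429 and 10.31 untreated, against 9.59 to 9.93 on the other 6 arrays. The difference from the other numbers was 0.54 ± 0.11 (SE) on the log2 scale (limma, adjusted p = 0.00397). The test of any difference was lost without number 3 (adjusted p = 0.0579), without number 4 (adjusted p = 0.308) and with each array centred on its olfactory receptor median (adjusted p = 0.071). GP6 was higher at number 4 by 0.48 ± 0.12 (SE, limma, adjusted p = 0.0123), with adjusted p = 0.0517 over all numbers.

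The dim probe sets moved at number 4 too. The median olfactory receptor stood 0.125 above its level at the other numbers there, against 0.083 for all probe sets. Of the olfactory receptor probe sets, 18.4% passed as higher and 1.72% as lower, against 26.3% and 25.5% of all probe sets. At numbers 1, 2 and 3 the olfactory receptor median lay at -0.05, -0.02 and -0.075, against -0.03, -0.01 and -0.013 for all probe sets. Among the receptors, 4 of 8 were higher and 2 of 8 lower at number 4, against 26.3% and 25.5% of all probe sets. At number 2, 3 of 8 were higher and 0 of 8 lower, against 15.4% and 11.6%. At number 1, 0 of 8 were higher and 1 of 8 lower, against 10.6% and 6.14%, and at number 3 none of the 8 passed in either direction, against 1.18% and 0.2%.

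Markers of other cells and of T-ALL were set beside these shifts. For their counts at number 4, 26.3% of all probe sets were higher and 25.5% lower. Of 7 myeloid markers, 4 were higher and 0 lower at number 4, where their mean level was 6.02, against 5.36 to 5.67 at the other numbers. The macrophage protein CD68 measured 8.25 with OICR-9429 and 8.50 untreated at number 4, and 6.48 to 7.00 elsewhere, while CD163, a scavenger receptor of macrophages, had number means of 5.25 to 6.17. MPO, the peroxidase of granulocytes, had number means of 5.59 to 5.80, and ITGAM, an integrin chain of myeloid cells, 4.49 to 5.09. Of 7 fibroblast markers, 2 were higher and 0 lower at number 4, with a mean level of 4.84, against 4.51 to 4.65 at the other numbers. Among them ACTA2, a smooth muscle actin, had a number mean of 7.13 at number 4 and 5.94 to 6.06 elsewhere. THY1, a surface protein of fibroblasts and thymocytes, had a number mean of 6.07 at number 3 and 4.91 to 5.31 elsewhere. PDGFRA, a growth factor receptor, had a treatment difference of -0.29 inside the dim range. Of 6 epithelial markers, 0 passed at number 2 and 1 was lower at number 4, with mean levels of 5.60 to 5.75 over the numbers. EPCAM, an epithelial adhesion protein, had a number mean of 6.64 at number 1 and 5.46 at number 4. The keratins KRT8 and KRT19 had number means of 7.68 to 8.25 and 6.41 to 6.80, and KRT18 4.50 to 4.88. At number 1, 2 myeloid markers and 1 fibroblast marker were lower (6.14% of all probe sets), and 1 epithelial marker was higher (10.6%). At number 2, 1 fibroblast marker was lower (11.6%). At number 3, 1 myeloid marker was lower (0.2%) and 1 fibroblast marker higher (1.18%). Of 7 platelet and megakaryocyte markers, 2 were lower at number 1, 2 were higher at number 4, and 0 passed at numbers 2 and 3. Of 12 T-ALL markers, 8 differed between numbers, against 50.3% of all probe sets. At number 4, 3 T-ALL markers were higher and 5 lower, and at number 3, 3 were higher and 0 lower. At number 2, 1 was higher and 2 were lower, and at number 1, 0 were higher and 1 lower. The part of such markers in the LAIR1, ITGA11 and DDR1 values was not tested.

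**Figure D4:**
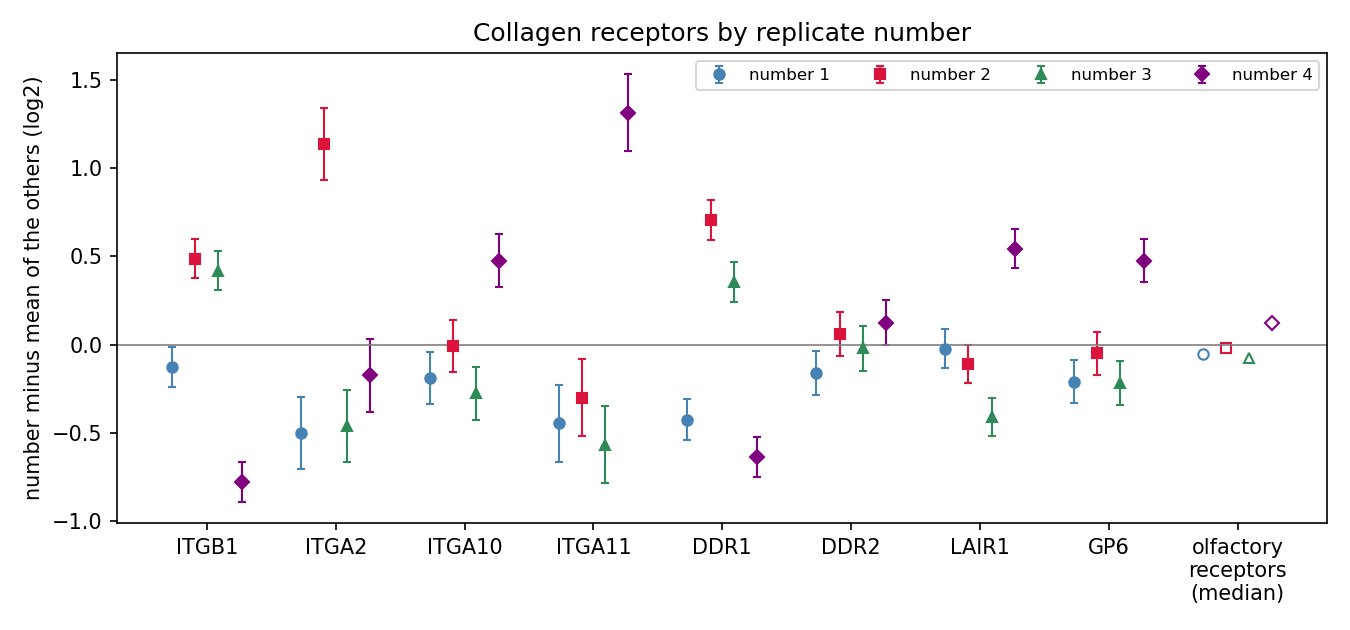
Difference of each replicate number from the mean of the other numbers (log2, mean of 2 arrays, bars are SE from limma) for each receptor, with the median of the olfactory receptors as open symbols and no bar. ITGA2 stands apart at number 2 (1.14), ITGA11 at number 4 (1.31), and ITGB1 and DDR1 lie lowest at number 4 (-0.78 and -0.64).

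The genes whose values ran most like those of the 5 receptors above the dim range were found by the root mean square difference of centred log2 values over the 8 arrays. For ITGB1, whose own values varied by 0.386 about their mean, they were RANBP2, a nuclear pore protein, at 0.0765, RHOT1, a mitochondrial GTPase, at 0.0796 and NSD3, a histone methyltransferase, at 0.0845. For LAIR1 (0.261) they were MID1IP1, ZNF48 and TDRD5 at 0.0626 to 0.0673, and for DDR1 (0.417) CAST, the inhibitor of calpain, PDE7A, a cyclic AMP phosphodiesterase, and ZNF776 at 0.0778 to 0.082. For ITGA10 (0.26) they were MMP7, DCLK1 and SUSD5 at 0.0646 to 0.0782, and for GP6 (0.251) JCHAIN, LHB and KIF1A at 0.0591 to 0.0665. Every named neighbour of ITGA10 lay inside the dim range, with means of 3.41, 3.35 and 4.49. Of the neighbours of LAIR1 and GP6, TDRD5 (3.19) and JCHAIN (3.34) lay inside it and the others above.

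The ligands and partners of the receptors were read from lists of related genes. None of their members passed the treatment test, with or without the block, as was the case for all probe sets. For the counts that follow, 72.5% of all probe sets lay above the dim range, 50.3% differed between numbers, and 26.3% were higher and 25.5% lower at number 4. Of 11 measured collagen chains, 6 lay above the dim range, and 5 were higher and 0 lower at number 4. COL4A2, a basement membrane collagen, had number means of 7.50, 8.04, 7.92 and 8.84 at numbers 1 to 4. COL2A1, the cartilage collagen, averaged 6.67 ± 0.54 with OICR-9429 and 6.87 ± 0.31 in untreated cells (SD, n = 4 each). The type I chains COL1A2 and COL1A1 had log2 differences of -0.22 and -0.20, with unadjusted p = 0.0466 and 0.134 (limma with the block). Their adjusted p were 0.841 for both.

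Among the other alpha partners of ITGB1, 7 of 8 lay above the dim range, and 4 were lower and 1 higher at number 4. ITGA6, a laminin receptor chain, measured 7.60, 8.47, 7.13 and 5.46 with OICR-9429, against 7.60, 8.39, 7.03 and 5.90 in untreated cells. At number 4 it stood -2.02 ± 0.14 (SE) from the other numbers on the log2 scale (limma, adjusted p = 4e-05). ITGAV, a vitronectin receptor chain, measured 6.61, 8.03, 6.83 and 5.04 with OICR-9429, against 6.61, 7.25, 6.57 and 5.24 in untreated cells, and stood -1.84 ± 0.18 (SE) from the others at number 4 (limma, adjusted p = 0.000137). Both were lowest at number 4, as was ITGB1. ITGA8 lay inside the dim range, with a treatment difference of 0.14.

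Of 19 measured integrin activators and adhesion adaptors, 17 lay above the dim range and 11 differed between numbers, against 72.5% and 50.3% of all probe sets. At number 4, 8 were higher and 3 lower, and at number 2, 3 were higher and 5 lower. FERMT3, the kindlin of blood cells that activates integrins, had number means of 8.47, 7.22, 7.95 and 8.70, and RASGRP2, which switches on RAP1 ahead of integrin activation, 8.21, 7.04, 7.39 and 8.06. Both were lowest at number 2. FERMT1, an epithelial kindlin inside the dim range, averaged 3.40 ± 0.33 with OICR-9429 and 3.07 ± 0.20 in untreated cells (SD, n = 4 each).

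Of 14 measured kinases and docking proteins, 11 lay above the dim range and 9 differed between numbers. LCK, the SRC-family kinase of T cells, had number means of 10.92, 10.27, 10.82 and 11.64, and PIK3R1, the regulatory subunit of PI3 kinase, 9.16, 9.86, 9.48 and 8.52. SRC and the adaptor NCK1 had the smallest unadjusted p for treatment in this list in the fit with the replicate block, with log2 differences of 0.27 and 0.22. PTK2, which encodes focal adhesion kinase, and the docking protein BCAR1 lay inside the dim range.

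Of 9 measured signalling genes below GP6 and LAIR1, 6 lay above the dim range and 4 differed between numbers. The adaptor LCP2, the exchange factor VAV1 and the phospholipase PLCG2, which act below GP6 in platelets, lay above the bound with means of 10.59, 9.19 and 5.86 over all arrays. BTK, in the same list, lay inside the dim range, with a mean of 3.35. The phosphatase PTPN6, which LAIR1 recruits, measured 9.20, 8.84, 9.12 and 10.02 with OICR-9429, against 9.19, 8.89, 9.14 and 9.93 in untreated cells. PTPN11 measured 10.16, 10.25, 10.32 and 8.70 with OICR-9429, against 10.18, 10.23, 10.15 and 8.79 in untreated cells. At number 4 PTPN6 was higher by 0.91 ± 0.11 and PTPN11 stood -1.47 ± 0.11 (SE) from the others, with adjusted p = 0.000297 and 5.1e-05 (limma). FCER1G and SYK, through which GP6 signals, lay inside the dim range, at 4.26 ± 0.59 and 4.48 ± 0.35 with OICR-9429, against 4.07 ± 0.18 and 4.34 ± 0.47 in untreated cells (SD, n = 4 each).

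Of 7 other collagen-binding proteins, LAIR2 among them, 6 lay above the dim range and 4 differed between numbers. At number 4, 5 of the 7 were higher and 0 lower. OSCAR, a collagen receptor of the osteoclast and myeloid lineage, measured 6.67, 6.28, 6.72 and 7.91 with OICR-9429, against 6.63, 6.91, 7.19 and 8.10 in untreated cells. ADGRG1, an adhesion receptor that binds type III collagen, measured 6.00, 6.62, 6.64 and 7.55 with OICR-9429, against 6.02, 6.59, 6.49 and 7.68 in untreated cells. SDC1, a heparan sulfate proteoglycan, averaged 5.43 ± 0.49 with OICR-9429 and 5.62 ± 0.39 in untreated cells (SD, n = 4 each). CD36, a scavenger receptor, lay inside the dim range.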

How the data were processed

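The authors deposited log2 expression values per probe set for 8 arrays. The submitters' processing notes name RMA, which corrects background, normalizes arrays against each other and summarizes probes, and Transcriptome Analysis Console. Their versions and the genome build were not given in the sources used here. Scanner files were not used here, so background and scan batch were not examined, and the number of arrays limits the precision. Array medians ran from 6.38 to 6.46, and 0 pairs of arrays were identical.

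Of 21448 probe sets, 17709 had 1 symbol, 0 several and 3739 none here. Symbols were updated through Entrez IDs with a RefSeq table (GRCh38.p14), and the probe set with the highest mean represented a gene. Groups were compared with limma 3.58.1 (R 4.3.3; lmFit, eBayes, two-sided), with Benjamini-Hochberg adjustment over all probe sets and a threshold of 0.05. Deviations from group means correlated between same-numbered arrays, across probe sets, at 0.696, 0.748, 0.566 and 0.865, so the numbers of the sample titles pair the arrays. The replicate block was run as an alternative, as were other variance models, scalings, a filter on dim probe sets, other dim bounds and leaving out arrays. The scripts were tested on simulated data.

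The members and lists were chosen with earlier results of these data known. Lists covered ligands, partners and signalling genes of the receptors, T-ALL markers and markers of 4 other kinds of cell. Named genes were the receptors, the 2 genes of each list with the largest range of number means, the 2 with the smallest unadjusted p with the replicate block, and for receptors above the dim range the 3 genes nearest in pattern. Genes given only as inside the dim range, and LCP2, VAV1, PLCG2, BTK and LAIR2, were chosen after their values were seen.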

Additional observations from a re-analysis of the deposited data

How the results depend on the processing

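The treatment test gave 0 receptors and 0 probe sets past the threshold without a block, with the replicate block (smallest adjusted p 0.841), with trend and robust variance, with median centring, with quantile normalization run again, with the filter on dim probe sets, and when arrays or pairs were left out. Signs of the small treatment differences were not stable. The difference of LAIR1 was 0.005 with arrays centred on their medians, and ITGA11 0.0011 with quantile normalization run again. Without the block, leaving out a single array gave -0.35 to 0.22 for ITGA2, -0.065 to 0.22 for ITGA10 and -0.42 to 0.24 for ITGA11. It gave -0.13 to 0.26 for ITGB1, -0.15 to 0.23 for DDR1 and -0.17 to 0.10 for LAIR1. With the block and a pair left out, ITGA2 ran from -0.26 to 0.11, ITGA10 from -0.017 to 0.20, ITGA11 from -0.16 to 0.24, DDR1 from -0.02 to 0.06 and LAIR1 from -0.05 to 0.0033. DDR2 and GP6 kept their sign in all of these.

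The count of probe sets that differed between numbers was 10791, and 2979 to 10394 when a number was left out, lowest without number 4. The count of receptors was 5, and 2 to 5. The count above the dim range was 5, and 6 with the 90th percentile, 2 with the 99th percentile, 4 when each array had to pass its own bound, 2 with keratin-associated proteins and 4 to 5 when a number was left out. GP6 passed the test between numbers with median centring (adjusted p = 0.0495), with the filter on dim probe sets (0.0316) and without number 2 (0.0382) in limma. Centring on olfactory receptors was chosen after seeing the data. The cause of these changes was not tested. Signal over background is not known here, which limits what the dim receptors can show.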
